A study of Homo sapiens with 6 samples.

Results

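The genes described here are the 60 human genes whose symbols are H2AC, H2BC, H3C or H4C followed by a number, out of 59653 genes in the deposited table. They were chosen by symbol alone and encode the 4 replication-dependent core histones: 16 H2A genes, 17 H2B genes, 13 H3 genes and 14 H4 genes. The study used PA1, a human ovarian teratocarcinoma line long kept in culture and described as wildtype, and compared transfection with siRNA to SOX2 against a negative control siRNA, with 3 libraries in each group. SOX2 is a transcription factor of pluripotent and progenitor cells. In both groups cells were transfected as attached (2D) cultures and moved after 24 hours to plates coated with poly-HEMA, to which cells do not attach, where they grew in 3D for a further 72 hours before Trizol extraction of RNA. The series text names 2 siRNAs to SOX2 and does not say whether they were pooled or used in different libraries. All libraries come from 1 cell line. Nothing in the labels says that replicates were separate cultures, so p-values measure the spread between these libraries, which may be technical.

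Core histones form the octamer around which DNA is wrapped. Cells make most of them in S phase, from gene clusters whose messages, unlike nearly all others, normally end in a short stem-loop in place of a poly(A) tail. The stem-loop-binding protein SLBP holds that stem-loop during 3′ processing, translation and decay. The library kit, KAPA mRNA HyperPrep, captures poly(A) RNA, so the counts below come from whatever histone transcripts such a library retains, for example ones with a poly(A) tail added at a later site or reads carried over without capture. They are not a measure of total histone mRNA.

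To show what these messages end in, the stem-loop sites of 7 genes are given 5′ to 3′ as DNA on the transcript's strand, from GENCODE 29 transcripts (GRCh38), with the stem-loop in capitals and up to 5 flanking bases on each side in lower case.
H2BC21 (H2B): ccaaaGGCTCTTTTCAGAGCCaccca
H2BC5 (H2B): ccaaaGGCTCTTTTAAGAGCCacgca
H3C6 (H3): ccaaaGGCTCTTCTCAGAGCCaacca
H2AC11 (H2A): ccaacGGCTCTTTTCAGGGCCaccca
H4C5 (H4): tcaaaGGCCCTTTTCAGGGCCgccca
H4C15 (H4): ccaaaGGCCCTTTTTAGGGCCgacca
H3C14 (H3): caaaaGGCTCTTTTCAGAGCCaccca
The pattern searched was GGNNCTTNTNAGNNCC on the sense strand. It occurred in 28 of the 60 genes, or in 28 of the 32 whose model extends beyond the coding bases, and in 0.266% of 83129 protein-coding transcripts of the whole annotation. A gene without a match has, in most cases, a model that stops with the coding bases. The form printed for H2BC21 was the most common in the H2A, H2B and H3 genes. H2BC4, H2BC5 and H2BC7 and the H3 gene H3C8 shared the form printed for H2BC5. All 7 H4 genes with a match had 1 of the 2 forms printed for H4C5 and H4C15. In every form the first 6 and the last 6 bases were complementary at all 6 positions, except that of H2AC11, which was complementary at 5 of 6. The pattern searched already fixes most of these positions as complementary, so only those at its N letters could differ.

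Total counts per library ranged from 25152313 to 32753184. SOX2 itself had 8093, 6647 and 7396 counts in control and 1564, 1776 and 1513 after its siRNA, so 20.5% of the control CPM remained (log2 fold change -2.28, edgeR adjusted p = 5.97e-16; exact two-sided permutation p = 0.1, the smallest that 3 against 3 libraries allow). CPM are read counts relative to the scaled library size. Of 8 genes typical of PA1 and other pluripotent cells, all were measured. Together they summed to between 1745 and 1769 CPM in control and between 2164 and 2187 CPM after SOX2 siRNA, while L1TD1 and DPPA4 had means under 4 CPM. Of 8 markers of other cells, HBB was at 0 in every library, and PTPRC, CD3E, HBA1 and KRT5 had at most 3 counts in any. ALB had 2 to 68 counts per library and CD68 8 to 24, with neither called. The endothelial marker PECAM1 made up most of that list and fell from 64.2 to 43.7 CPM (edgeR adjusted p = 2.69e-08), and its part in the histone result was not tested.

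Histone transcripts were a small part of these libraries. The 60 genes together had 10004 counts, from 1518 to 2053 per library, or from 50.3 to 62.7 CPM before scaling. A gene was counted as detected where every library of at least 1 group had more than 3 counts. By that rule 32 genes were detected, 20 had traces, and 8 had 0 counts in all 6 libraries: H2AC1, H2AC18, H2BC1, H2BC3, H3C11, H4C6, H4C7 and H4C13. In a library a count of 0 allows up to 3 counts, which equal 0.0909 to 0.120 CPM, and that limit covers counting error only.

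By histone type, detection was widest for H2B. Detected were 12 of 17 H2B genes, 7 of 16 H2A genes, 7 of 13 H3 genes and 6 of 14 H4 genes. H2B genes held 55.1% of all the counts, H2A genes 20.9%, H4 genes 17.4% and H3 genes 6.59%. The counts were concentrated: H2BC12 alone held 21% and the 5 genes with most counts 55.0%. These are shares of counts, not of molecules, since a longer transcript gives more reads.

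**Figure D1:**
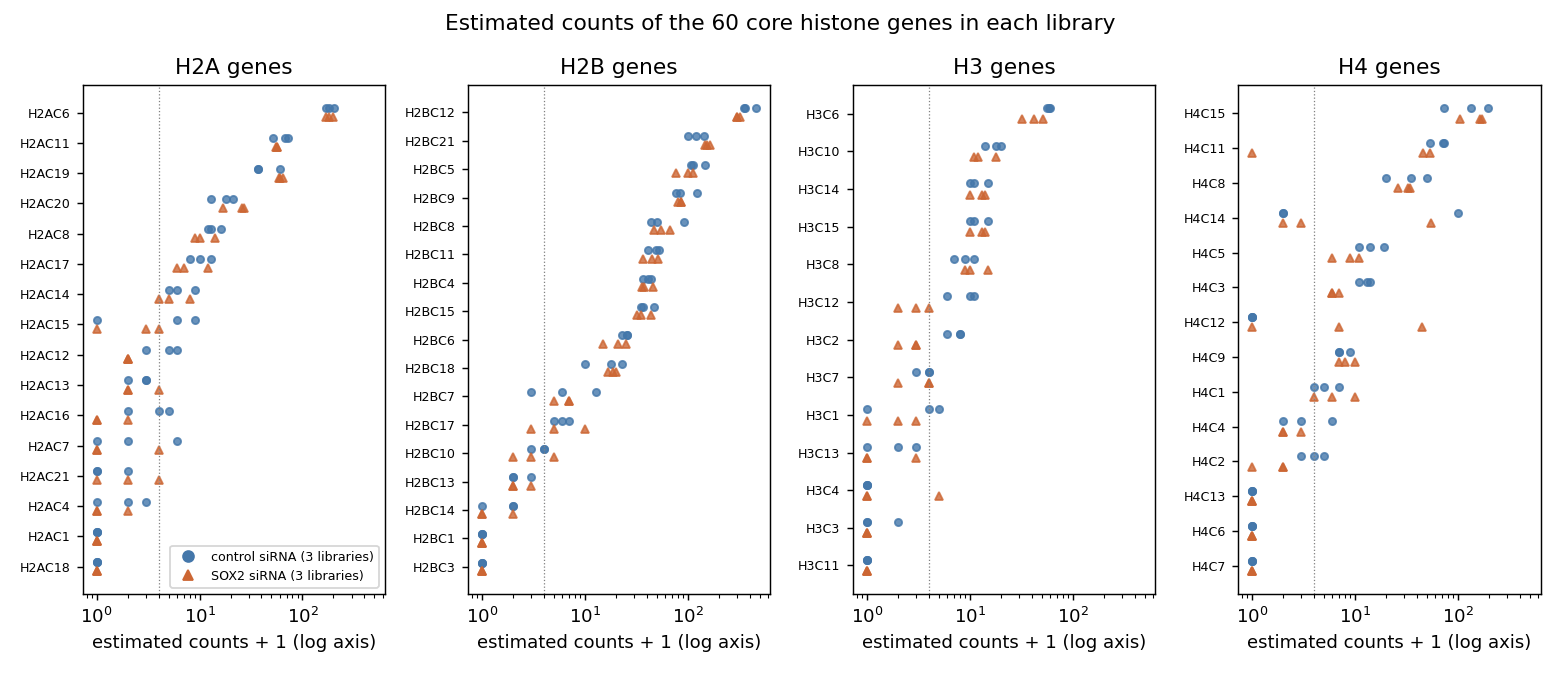
Estimated counts plus 1 (log axis) of each of the 60 genes, in 1 panel per histone type; circles are the 3 control siRNA libraries and triangles the 3 SOX2 siRNA libraries, and the dotted line marks 3 counts. H2BC12 stands highest, between 298 and 465 counts, while 8 genes lie at 0 in every library.

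Detection went with the annotated transcript model. In GENCODE 29, 22 genes have a model that runs over 100 bases past the stem-loop or is spliced, and 21 of them were detected, the exception being H4C14. Of the other 38 genes, whose models mostly stop at the coding bases or soon after the stem-loop, 11 were detected and 8 were at 0 in all libraries. Per 1000 bases of the longest model, the median count summed over the 6 libraries was 95.1 in the first class and 24.7 in the second. The clearest exception was H2BC12, whose GENCODE 29 model holds coding bases only but which spans 8566 bases in RefSeq. By RefSeq's gene spans, 7 of the 8 genes longer than 1000 bases were detected, against 25 of the 52 shorter ones. GENCODE 29 may differ from the annotation the authors counted against. Transcripts that end at a later, polyadenylated site and models that collect more reads because they are longer cannot be told apart here.

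**Figure D2:**
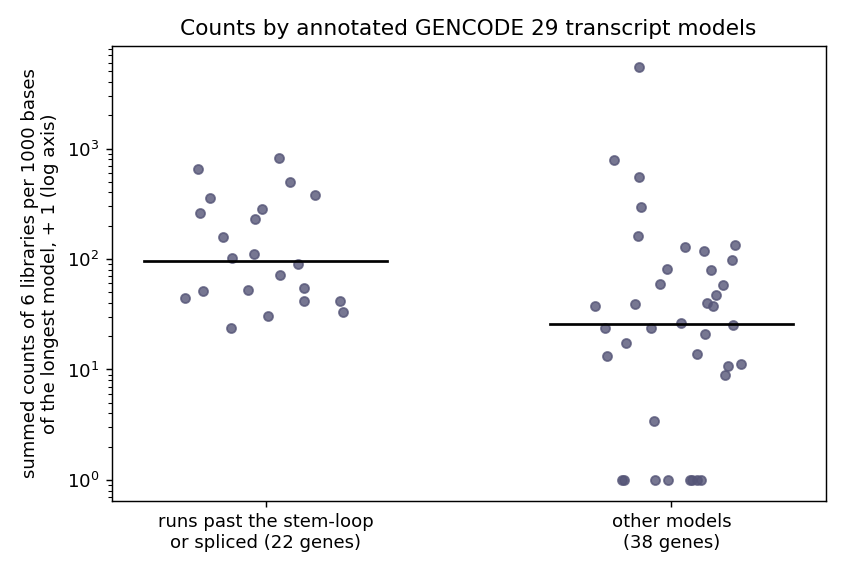
Counts summed over the 6 libraries per 1000 bases of the longest GENCODE 29 model, plus 1 (log axis), for the 22 genes with a model running past the stem-loop or spliced and for the other 38; each point is a gene and the line is the median. The medians are 95.1 and 24.7 before adding 1, and the 8 genes at 0 are all in the second class.

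Core histone genes of 1 type are close copies, which limits what a count for 1 gene means. Only pairs with coding sequences of equal length were compared, base by base without alignment (67 H2A, 120 H2B, 78 H3 and 78 H4 pairs). Between such genes of a type, coding sequences were identical at a median of 85.1% of bases for H2A, 90.2% for H2B, 85.3% for H3 and 83.8% for H4. In 4 pairs they were identical throughout: H2AC18 with H2AC19, H3C14 with H3C15, H4C11 with H4C12, and H4C14 with H4C15. H3C14 and H3C15 had exactly the same count in each library, namely 14, 10 and 9 in control and 13, 12 and 9 after SOX2 siRNA. H4C15 had 195, 133 and 73 counts in control and 169, 161 and 104 after SOX2 siRNA, while H4C14 had 1, 1 and 98 and then 1, 2 and 54. The sum of that pair was steadier than either gene, at 196, 134 and 171 counts in control and 170, 163 and 158 after SOX2 siRNA. H4C11 had 70, 52 and 73 counts in control and 53, 45 and 0 after SOX2 siRNA, and H4C12 had 0 in all control libraries and 0, 6 and 44 after SOX2 siRNA. So in these 2 H4 pairs a library low in 1 gene was high in its copy, and values for single genes of the 4 pairs are uncertain except as sums. H2AC18 was at 0 throughout and all of that pair's counts stood under H2AC19. Further, 14 of the 60 gene models overlap another gene, among them H2BC15 with H2AC15 and H2AC16, and H3C14 with H4C14, and whether counting used strand is not given in the sources used here.

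**Figure D3:**
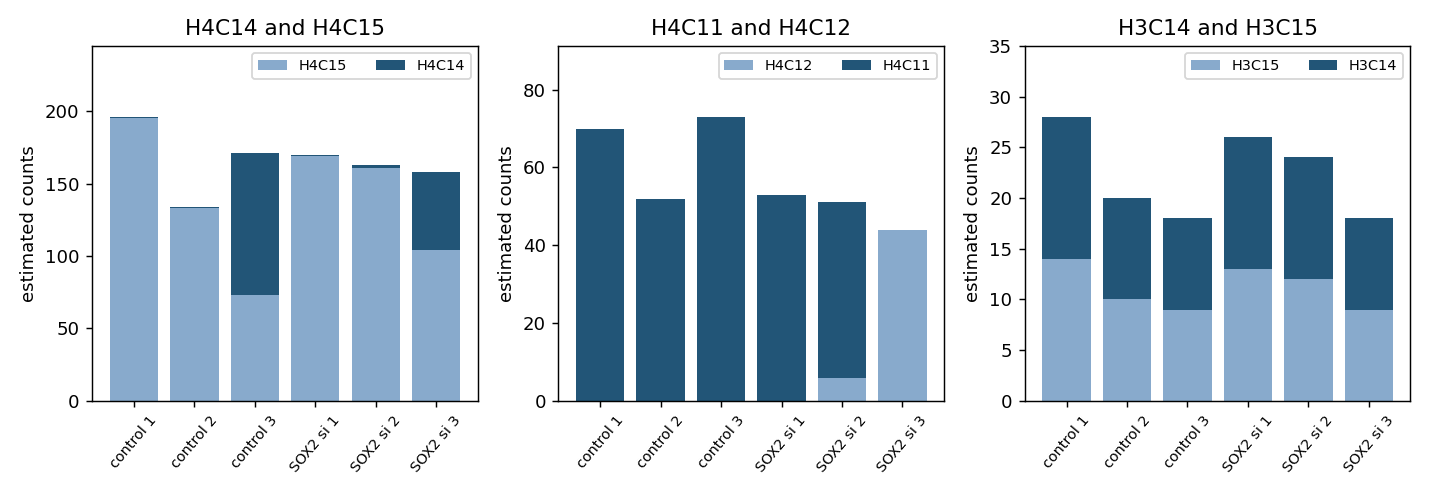
Estimated counts in each of the 6 libraries for 3 pairs of genes with identical coding sequences, stacked so that the bar height is the pair's sum. H4C14 takes counts from H4C15 in control replicate 3 and SOX2 siRNA replicate 3, H4C12 replaces H4C11 in SOX2 siRNA replicate 3, and H3C14 and H3C15 split evenly everywhere.

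After SOX2 siRNA, 24 of the 60 genes had enough counts to be tested, and 3 were called lower and none higher. edgeR's quasi-likelihood test called genes at an adjusted p under 0.05 over all 17592 genes tested. Lower calls made up 13.4% of those genes and 12.5% of the tested histone genes. Higher calls made up 14.8% of all genes, and edgeR called none of the 24 higher. Calls are rarer at low counts. Of 6318 tested genes with average levels up to those of the 24 other than H2BC12, 15.2% were called, both directions together. At an unadjusted p under 0.05 edgeR put 1 gene higher, H2BC21, and DESeq2's Wald test and limma-voom also called none. The share of lower calls was thus near that of all genes. The median log2 fold change of the 24 was -0.23, against -0.00085 over all tested genes. In 8 of them (33.3%) every SOX2 siRNA library lay below every control library, against 20.3% of all genes, and in 2 (8.33%) every one lay above, against 21.5%. Of the 24, 2 (H4C3 and H4C5) passed the count filter through control libraries alone. H2AC8, H3C10 and H4C11 were over its limit in 3 control libraries but in only 1 or 2 SOX2 siRNA libraries. H2BC18 was over it in 2 control and 3 SOX2 siRNA libraries. So these counts of genes describe the tested genes and support nothing about the 60. In bulk RNA, fewer cells in S phase and less histone RNA per cell cannot be told apart.

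Precision differed widely between the genes. The standard error of a log2 fold change was smallest for H2BC12, at 0.0816, had a median of 0.24, and reached 0.96 for H4C11, whose counts trade with H4C12. In 17 of the 24 the change was under 2 standard errors.

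Summed over all genes of a type, tested or not, the levels were lower after SOX2 siRNA for H2B, H3 and H4 without overlap of the groups. All 60 genes summed to 62.2, 61.7 and 57.2 CPM in the control libraries and to 52.8, 50.7 and 50.8 CPM after SOX2 siRNA, which was 85.2% of control. The sum does not depend on how reads were divided among the listed genes of a type, though it does on any shared with copies outside them, and it carries no test. For H3 the sum was 4.32 ± 0.41 CPM in control and 3.10 ± 0.30 after SOX2 siRNA (SD, n = 3), or 71.8% of control. H4 summed to 10.6 ± 0.88 and 8.81 ± 0.30 CPM (SD, n = 3), or 83.3%. H2B summed to 33.4 ± 2.64 and 28.2 ± 0.80 CPM (SD, n = 3), or 84.4%. Without H2BC12 the H2B sum was 91.1% of control and the groups overlapped. H2A summed to 12.1 ± 0.53 and 11.4 ± 0.39 CPM (SD, n = 3), or 94.1%, and the groups overlapped.

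**Figure D4:**
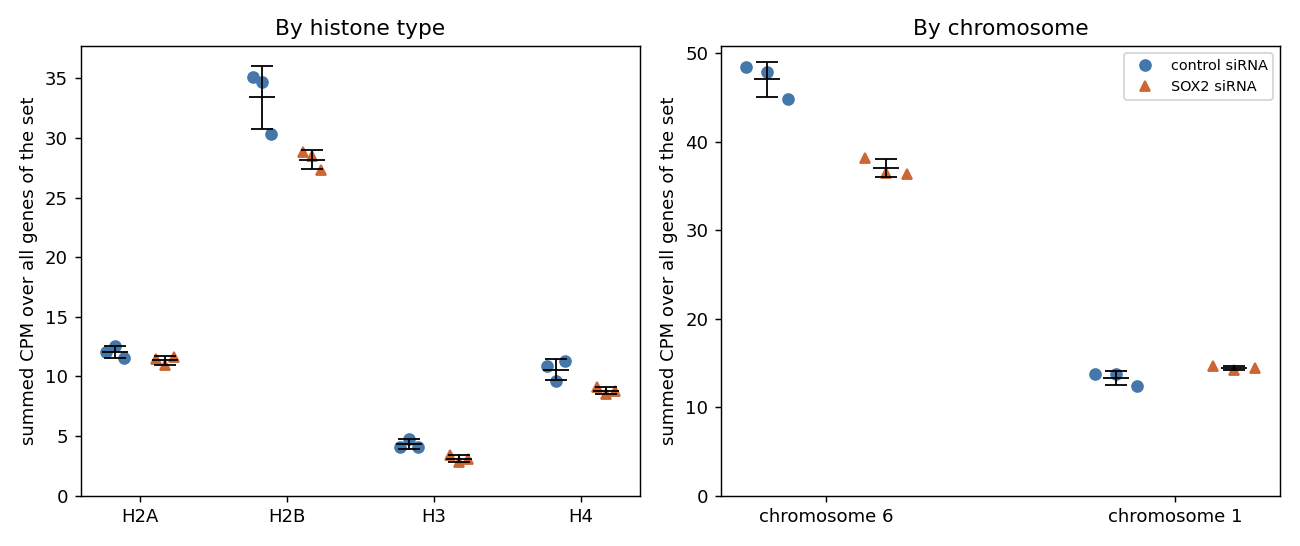
Summed CPM of the core histone genes in each library, by histone type (left) and by chromosome (right); circles are control siRNA and triangles SOX2 siRNA libraries, and bars are the mean ± SD of 3 libraries. H2B, H3, H4 and chromosome 6 lie lower after SOX2 siRNA without overlap, H2A overlaps, and chromosome 1 lies slightly higher.

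Among the H2B genes, H2BC12 and H2BC5 fell. H2BC12 lies at chr6:27146418-27146798 on the minus strand (GRCh38, GENCODE 29), a model of 1 exon of coding bases. Its counts were 465, 350 and 360 in control and 325, 303 and 298 after SOX2 siRNA. Every SOX2 siRNA library lay below every control library in CPM (13.5 ± 0.91 and 10.04 ± 0.70, SD, n = 3). The log2 fold change was -0.43 (SE 0.08, edgeR adjusted p = 6.75e-04), or 0.743 of the control level, and the call held under each alternative tried. H2BC5, at chr6:26158146-26171349 on the plus strand with a spliced model beside an unspliced one, had 145, 111 and 108 counts in control and 99, 112 and 76 after SOX2 siRNA. Its CPM did not overlap between groups once scaled to depth (4.19 ± 0.39 and 3.10 ± 0.49, SD, n = 3). The log2 fold change was -0.43 (SE 0.15, edgeR adjusted p = 0.0389). That call was lost with DESeq2's Wald test (adjusted p = 0.115) and without control replicate 1 (0.122), control replicate 2 (0.129) or SOX2 siRNA replicate 3 (0.153).

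The other 8 tested H2B genes were not called, and their values went both ways. H2BC21, at chr1:149884459-149886652, was the one with the largest positive value: it had 142, 119 and 99 counts in control and 153, 165 and 147 after SOX2 siRNA. Its groups did not overlap in CPM (4.16 ± 0.67 and 5.03 ± 0.10, SD, n = 3), with a log2 fold change of 0.28 and an adjusted p of 0.13 in edgeR. H2BC9 had 123, 76 and 83 counts in control and 85, 86 and 80 after SOX2 siRNA, lower in CPM without overlap but not called (log2 fold change -0.24, edgeR adjusted p = 0.259). H2BC8, with 92, 49 and 43 counts and then 46, 66 and 54, and H2BC11, with 48, 40 and 52 and then 36, 51 and 44, overlapped. The log2 fold changes of H2BC4, H2BC6, H2BC15 and H2BC18 lay between -0.41 and 0.03. H2BC7 and H2BC17 were detected but not tested, with 2 to 12 counts per library, H2BC10, H2BC13 and H2BC14 had 0 to 4, and H2BC1 and H2BC3 had none.

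No H2A gene was called. H2AC6, at chr6:26124145-26139116, had 200, 169 and 179 counts in control and 197, 181 and 168 after SOX2 siRNA, and its groups overlapped (log2 fold change -0.10, SE 0.11). H2AC11 had 71, 51 and 67 counts in control and 56, 54 and 55 after SOX2 siRNA. Scaled to depth these did not overlap, at 2.17 ± 0.14 and 1.79 ± 0.10 CPM (SD, n = 3), but the gene was not called (log2 fold change -0.28, edgeR adjusted p = 0.261). H2AC19, which also holds any reads of its copy H2AC18, went the other way, with 59, 36 and 36 counts in control and 58, 60 and 64 after SOX2 siRNA. Its groups did not overlap in CPM, and it was not called (log2 fold change 0.40, SE 0.20, edgeR adjusted p = 0.153). H2AC20 had a log2 fold change of 0.36 and H2AC8 of -0.43, each with overlapping groups and under 30 counts per library. Of the untested H2A genes, H2AC17 and H2AC14 had 3 to 12 counts per library and H2AC15, H2AC12, H2AC13, H2AC16, H2AC7, H2AC21 and H2AC4 had 0 to 8.

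No H3 gene was called, although all 4 tested had negative values. Of these, H3C14 and H3C15 had the same counts in every library and are not separate values. H3C6, at chr6:26224199-26227473 and with the longest tested H3 model, had 58, 59 and 55 counts in control and 41, 31 and 50 after SOX2 siRNA. Its groups did not overlap in CPM (2.01 ± 0.31 and 1.33 ± 0.36, SD, n = 3), with a log2 fold change of -0.59 (SE 0.22, edgeR adjusted p = 0.06). H3C6 was called where at least 10 counts were required in every library (adjusted p = 0.0441) and without SOX2 siRNA replicate 3 (0.0209). H3C10 had 17, 13 and 19 counts and then 11, 17 and 10, and the evenly divided copies H3C14 and H3C15 had a log2 fold change of -0.04. Among the genes too low to test, H3C12 had 10, 5 and 9 counts in control and 2, 1 and 3 after SOX2 siRNA, and H3C2 had 7, 7 and 5 and then 2, 2 and 1. In these 2 genes every SOX2 siRNA library lay below every control library, and they were singled out after their values were seen. H3C8 was detected at 6 to 14 counts per library with overlapping groups. H3C1, H3C3, H3C4, H3C7 and H3C13 had 0 to 4 counts.

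Of the H4 genes only H4C3 was called, from few counts, and it entered the test through its control libraries alone, which favours a lower value. H4C3, at chr6:26103876-26104310 on the plus strand, had 12, 10 and 13 counts in control and 6, 5 and 5 after SOX2 siRNA. Its CPM were 0.404 ± 0.043 and 0.174 ± 0.023 (SD, n = 3), with no overlap. The log2 fold change was -1.20 (SE 0.40, edgeR adjusted p = 0.0322). The call was lost with DESeq2's Wald test (adjusted p = 0.226), with no filter beyond 1 count (0.084), and when any 1 of the 6 libraries was left out (0.0584 to 0.121). H4C5 had 18, 10 and 13 counts in control and 8, 10 and 5 after SOX2 siRNA, again without overlap in CPM, but was not called (log2 fold change -0.90, SE 0.37, edgeR adjusted p = 0.0833).

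Read as sums, the copied H4 genes were not called. H4C11 with H4C12 had 70, 52 and 73 counts in control and 53, 51 and 44 after SOX2 siRNA, without overlap once scaled (log2 fold change -0.48, SE 0.18, edgeR adjusted p = 0.0577). Counted alone, H4C11 had a log2 fold change of -1.09 with an SE of 0.96, and this value was -2.66 with limma-voom, -0.51 without SOX2 siRNA replicate 3 and -1.65 without SOX2 siRNA replicate 1. For H4C14 with H4C15 the log2 fold change was -0.11, with an SE of 0.11 (edgeR adjusted p = 0.491). Merging copies was chosen after the data were seen. H4C8 had 49, 19 and 34 counts and then 25, 32 and 33, with overlap. H4C9 and H4C1 had 3 to 9 counts per library, H4C4 and H4C2 had 0 to 5, and H4C6, H4C7 and H4C13 had none.

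The clearest order in the values was by chromosome, and it was noticed after the values were seen and carries no test. Of the 60 genes 49 lie on chromosome 6 and 11 on chromosome 1. The chromosome 6 genes summed to 48.4, 47.9 and 44.8 CPM in control and to 38.2, 36.5 and 36.4 CPM after SOX2 siRNA, or 78.7% of control, and to 82.0% without the 3 called genes. The chromosome 1 genes summed to 13.8, 13.8 and 12.4 CPM in control and to 14.6, 14.2 and 14.4 CPM after SOX2 siRNA, or 108.2% of control. Neither sum overlapped between groups. All 17 tested genes of chromosome 6 had negative log2 fold changes. Among them, the filter let in H4C3 and H4C5 through control libraries alone. H2AC8, H3C10 and H4C11 would not have passed it without their control libraries. With no filter beyond 1 count, 37 of 42 were negative. Of the 7 tested genes of chromosome 1, 5 were positive, the exceptions being H3C14 and H3C15. That count was less steady, at 3 of 8 without SOX2 siRNA replicate 1, 4 of 8 without SOX2 siRNA replicate 2, 4 of 7 without control replicate 3 and 4 of 6 with identical copies merged. The positive value of H4C15 was 0.03, while its sum with its copy H4C14 was negative (-0.11).

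Within each histone type the chromosome 1 genes stood higher relative to control than the chromosome 6 genes. For H2A the sums after SOX2 siRNA were 86.2% of control on chromosome 6 and 132.6% on chromosome 1. For H2B they were 78.7% and 118.5%. For H3 they were 66.6% and 95.1%, and for H4 72.1% and 92.8%, and in these 2 types the chromosome 1 groups overlapped. Many of these sums rest on few genes, with 2 to 4 per type on chromosome 1.

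Other genes of the 2 chromosomes had medians near 0. The median log2 fold change of 776 other tested genes on chromosome 6 was 0.00094, and of 1528 on chromosome 1 it was 0.0011. Within the span of the chromosome 6 histone genes, 22 other tested genes had a median of -0.02. Those 22 include the linker histone genes H1-2, H1-4 and H1-5, at log2 fold changes of -0.17, 0.39 and -1.07, none called. Within the span of the chromosome 1 histone genes, 2 other tested genes were found by start position, the H2B pseudogenes H2BC19P and H2BC20P. Positions were known for 15208 of the 17592 tested genes. H2BC19P rose, with 243, 189 and 203 counts in control and 262, 325 and 275 after SOX2 siRNA (log2 fold change 0.35, SE 0.09, edgeR adjusted p = 0.00735). H2BC20P, at 297, 231 and 259 counts and then 292, 305 and 288, was not called (log2 fold change 0.08, edgeR adjusted p = 0.499). Both were named after their values were seen, and reads of such copies may be shared with the H2B genes.

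**Figure D5:**
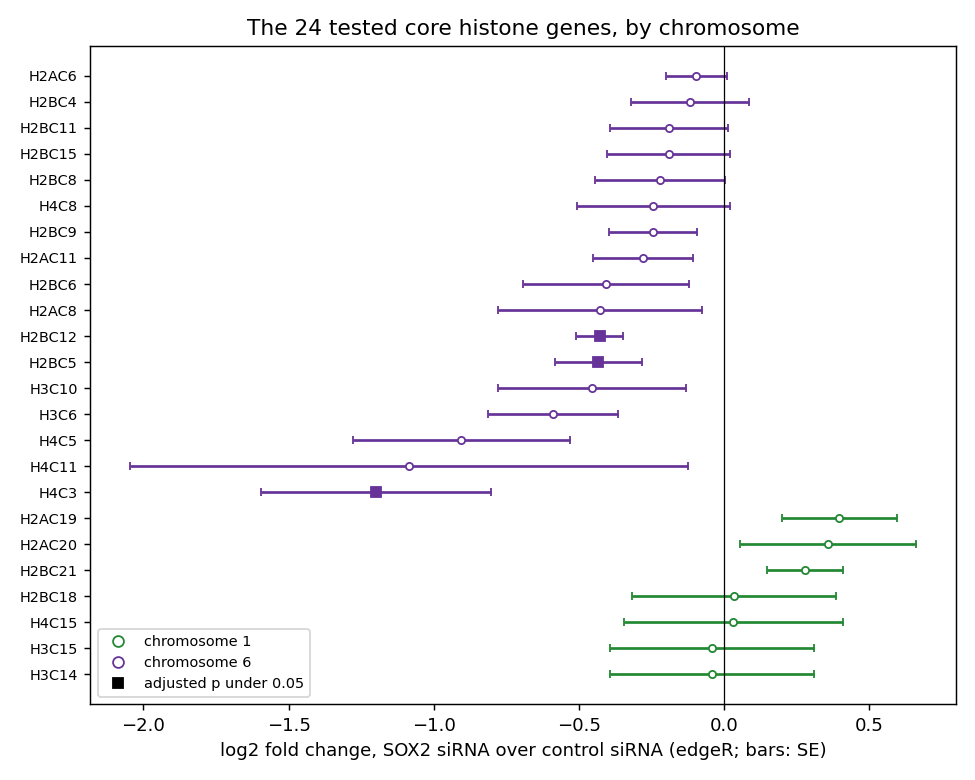
Log2 fold change (SOX2 siRNA over control siRNA, edgeR) of the 24 tested core histone genes, ordered within chromosome; bars are 1 standard error, and filled squares are the 3 genes with an adjusted p under 0.05. The 17 chromosome 6 genes lie below 0, and 5 of the 7 chromosome 1 genes lie above it, most within 2 standard errors of 0.

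The kit's poly(A) selection was also read from RNAs that lack a tail, because carried-over RNA could reach histone counts too. Of 16 such RNAs 4 could be tested, and all 4 fell: RMRP, the RNA of RNase MRP (log2 fold change -2.91), SNORD3A, the U3 small nucleolar RNA (-1.36), and RN7SL1 and RN7SL2, the signal recognition particle RNAs (-2.93 and -2.98). Their edgeR adjusted p ran from 2.54e-06 for RMRP to 0.0372 for RN7SL2, and was 0.00148 for SNORD3A. RMRP had 42, 46 and 33 counts in control and 5, 7 and 5 after SOX2 siRNA. It thus entered the test through control libraries alone, which favours a lower value. RNU6-1, RNU7-1 and RN7SK were at 0. Among the others too low to test, RPPH1, RNU1-1, RNU2-2P, RNU4-1, RNU4-2, RNU5A-1 and TERC were lower in CPM without overlap, from few counts. SCARNA2 and RNVU1-7 overlapped. The list summed to 59.6, 29.6 and 27.4 CPM in control and to 4.64, 7.76 and 3.65 CPM after SOX2 siRNA. Most of that sum came from RN7SL1 and RN7SL2, which varied widely between control libraries (923, 313 and 352 counts for RN7SL1). After SOX2 siRNA the list stood at 0.138 of control, the chromosome 6 histone sum at 0.787 and the chromosome 1 histone sum at 1.08. The part of these RNAs in the histone result was not tested.

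To relate the genes to their promoters, the 250 bases before the start of 55 of the 60 genes were read from RefSeq (GRCh38.p14). The octamer ATTTGCAT, the site of POU-family factors known from H2B promoters, was searched on both strands, as was CCAAT, and TATAAA on the sense strand. The octamer stood in 14 of 17 H2B promoters and 11 of 15 H2A promoters, in 1 of 11 H3 promoters and in 0 of 12 H4 promoters, against 1.6% of 35116 promoters. These are not all separate stretches. Many H2A and H2B genes start close together on opposite strands and share most of their 250 bases. A match on either strand there was counted for both genes. The H3 match, H3C4, has the same listed start and stretch as H2AC7. CCAAT stood in 83.6% of the 55 promoters against 32.0% of all, and TATAAA in 33 of 55 against 6.8%. The SOX-type letters ACAATG and ACAAAG, also searched on both strands, each stood in 4 of the 55 (7.3%), against 9.3% and 13.7% of all promoters. These are matches of letters only.

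The promoters of the 2 called H2B genes and of a chromosome 1 pair are shown because they hold these motifs and belong to genes with opposite signs. Sequences run 5′ to 3′ on the gene's strand and end at the base before the start, and capitals mark CCAAT or its reverse complement ATTGG, ATTTGCAT or its reverse complement ATGCAAAT, and TATAAA.
H2BC12, chr6:27146859-27147108, minus strand: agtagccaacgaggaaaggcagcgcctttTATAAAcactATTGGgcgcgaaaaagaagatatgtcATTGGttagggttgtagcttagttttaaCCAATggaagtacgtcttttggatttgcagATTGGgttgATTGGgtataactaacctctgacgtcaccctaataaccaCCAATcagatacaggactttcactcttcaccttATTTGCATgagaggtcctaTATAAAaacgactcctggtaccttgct
H2BC5, chr6:26157871-26158120, plus strand: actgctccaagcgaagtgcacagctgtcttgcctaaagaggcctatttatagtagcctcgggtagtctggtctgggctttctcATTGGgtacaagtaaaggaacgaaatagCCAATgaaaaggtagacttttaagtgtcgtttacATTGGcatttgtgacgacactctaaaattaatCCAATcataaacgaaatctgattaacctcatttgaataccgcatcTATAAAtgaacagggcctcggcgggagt
H2AC20, chr1:149886668-149886917, plus strand: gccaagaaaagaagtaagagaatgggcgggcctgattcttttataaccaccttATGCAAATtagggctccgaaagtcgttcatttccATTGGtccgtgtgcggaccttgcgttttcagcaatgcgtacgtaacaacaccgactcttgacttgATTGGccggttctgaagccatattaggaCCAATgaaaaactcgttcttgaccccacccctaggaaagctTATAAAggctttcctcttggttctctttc
The last covers the interval between H2AC20 and H2BC21, which start 236 bases apart on opposite strands, and runs on into the first bases of H2BC21. H2BC12 and the H2AC20 and H2BC21 stretch hold the octamer, and the H2BC5 stretch does not in these letters. H2AC20 and H2BC21 were not called (edgeR adjusted p = 0.429 and 0.13), so their sign is uncertain. Any part of the octamer in these values was not tested.

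Such divergent pairs are common among these genes. Only the 55 genes with a RefSeq promoter were searched. At 10 loci a minus-strand and a plus-strand member of these start within 500 bases of each other. The distances were 194 to 248 bases, and nearly all these loci join an H2A to an H2B gene. H2AC12 had no such promoter and was not searched, though its coding model starts at chr6:27147129 on the plus strand, close to H2BC12. Both members were tested in 4 pairs, and each pair had 1 sign: H2BC21 and H2AC20 were positive (0.28 and 0.36), and H2BC4 and H2AC6 (-0.12 and -0.10), H2BC8 and H2AC8 (-0.22 and -0.43), and H2BC11 and H2AC11 (-0.19 and -0.28) were negative. None of these 8 log2 fold changes was called. The negative pairs all lie on chromosome 6, where all 17 tested genes were negative, so their shared sign adds nothing to that count.

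Linker H1 genes of the replication-dependent kind, which bind DNA between nucleosomes, showed no call among 3 tested of 5. H1-5 had 16, 13 and 11 counts in control and 4, 6 and 10 after SOX2 siRNA (log2 fold change -1.07, edgeR adjusted p = 0.0586). It too entered the test through its control libraries, which favours a lower value. H1-2 had a log2 fold change of -0.17 and H1-4 of 0.39, and H1-1 and H1-3 were too low to test.

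The replacement histones, whose genes have introns or poly(A) signals and are used outside S phase too, stood at far higher counts and showed a different balance. Of 11 tested, 6 rose, none fell and 5 did not pass. Over all tested genes 14.8% were called higher and 13.4% lower. Standard errors ran from 0.033 for H2AZ2 to 0.080 for H2AJ, against a median of 0.24 for the tested core histone genes. Small changes were therefore called more readily here. H3-3A, which encodes H3.3, rose from 387 ± 18.98 to 519 ± 31.7 CPM in edgeR's scaling (SD, n = 3), a log2 fold change of 0.42 (edgeR adjusted p = 9.38e-06). The linker H1-10 rose from 135.6 to 171.6 CPM, and H2AX, the H2A variant phosphorylated at DNA breaks, from 105.6 to 126.7 CPM (edgeR adjusted p = 3.63e-06 and 0.00716). The list summed to 2626 to 2757 CPM in control and to 2978 to 3096 CPM after SOX2 siRNA. No test compared the 2 kinds of histone genes. Of 15 other histone symbols outside both lists, 10 were in the table and 4 tested, and none was called.

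Genes that make and process histone messages moved in both directions. Of 14 genes of 3′ processing 1 rose, 2 fell and 11 did not pass. SLBP rose from 74.7 ± 1.281 to 83.1 ± 1.32 CPM (SD, n = 3), with a log2 fold change of 0.15 (edgeR adjusted p = 0.0068). NCBP2, the small cap-binding subunit, and CPSF2, of the histone cleavage complex, were 0.903 and 0.921 of control (edgeR adjusted p = 0.0137 and 0.0275). Of 6 genes of histone mRNA decay 1 fell, the decapping enzyme DCP2 (0.919 of control, edgeR adjusted p = 0.0177). Of 9 genes of histone gene transcription 4 rose and 1 fell. CDK2 and its cyclin CCNE1, which act on the histone coactivator NPAT at the start of S phase, were 1.33 and 1.40 times control (edgeR adjusted p = 6.01e-07 and 2.88e-05), and the cell-cycle factor E2F1 was 1.19 times control (0.00157). POU2F1, which binds the octamer, was 0.909 of control (edgeR adjusted p = 0.0157), and NPAT itself, at 56.1 and 59.8 CPM, was not called (adjusted p = 0.141). CASP8AP2, in both the processing and the transcription list, was not called.

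Histone chaperones, S-phase genes and the general poly(A) machinery gave mixed or lower values. Of 18 chaperone genes 3 rose and 2 fell: ASF1B, which hands over H3 and H4, was 1.247 times control and DNAJC9 1.22 times, while NASP was 0.857 and the H2A and H2B chaperone NAP1L1 0.883 of control (edgeR adjusted p from 1.16e-04 for ASF1B to 0.00106 for NAP1L1). Of 24 S-phase genes 3 rose and 5 fell, with a median log2 fold change of -0.03. DTL was 0.774 and POLA1 0.880 of control, and UHRF1 1.18 times control. Of 14 genes of the general poly(A) machinery none rose and 4 fell, among them the poly(A) polymerase PAPOLG, from 49.2 to 30.8 CPM (log2 fold change -0.68, edgeR adjusted p = 1.82e-08), and PABPC1, CSTF3 and NUDT21 at 0.876, 0.893 and 0.917 of control. The part of these changes in the histone counts was not tested.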

How the data were processed

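The libraries were made from Trizol-extracted RNA with a KAPA mRNA HyperPrep kit, per the labels' protocols. The deposited table holds estimated counts per gene symbol from the authors: whole numbers, not normalized, in which identical gene copies share reads, which is the evidence that they are rounded estimated counts. The submitters' processing notes name bcl2fastq 2.20.0, STAR 2.7.3a, Salmon 0.14.1, DESeq2 1.28.1 and build GRCh38.p13, without roles. The annotation and the use of strand are not given in the sources used here.

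Counts were rounded, filtered with edgeR 4.0.16's filterByExpr (minimum count 10, about 0.333 CPM in 3 libraries), scaled by TMM and tested with the quasi-likelihood F-test (robust=TRUE) on group in R 4.3.3, with Benjamini-Hochberg adjustment over 17592 genes and a threshold of 0.05. The script was tested on simulated data. Standard errors are from the same fit. CPM use TMM-scaled library sizes, and 3 counts were the floor. Sums of CPM cover all genes of a set and have no test. Positions, transcripts and stem-loops came from GENCODE 29 (56 genes matched by ID, 4 by former symbol), promoters and gene spans from RefSeq. Alternatives used limma 3.58.1 and DESeq2 1.42.0; figures used Python 3.11.15 with matplotlib 3.10.9.

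The genes and the gene lists were chosen with earlier results of these data known. Named were SOX2, every tested histone gene, untested ones by counts, in each list up to 4 called genes by smallest p, and always SLBP, NPAT, the tested linker H1 genes and the tested RNAs without a tail. Some genes that meet this rule are not reported here. In the chaperone list 18 of 19 symbols matched. Replicate numbers are shared between groups, but the labels do not say what they stand for.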

Additional observations from a re-analysis of the deposited data

How the results depend on the processing

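Tried were a replicate block, 3 other scalings, limma-voom, robust=FALSE, DESeq2's Wald test, 2 other count filters (10 or more counts in all libraries, or a single count overall), each library left out in turn and, chosen after the data were seen, identical copies merged. The count of histone genes called lower, 3, was 1 with DESeq2's Wald test and 1 to 2 with a library left out (1 without control replicate 1 or control replicate 2); the cause was not tested. None was called higher under any of these. H2BC12 was called under all of them. Of 372 values of the 24 tested genes, 346 kept direction and call, 14 lost a call (H2BC5 and H4C3), 2 gained one (H3C6) and 10 changed sign. All 10 were of uncalled genes with a library left out. Over the 6 such fits H2BC18 ranged from -0.33 (without control replicate 1; -0.00028 without SOX2 siRNA replicate 1) to 0.317, H2BC8 from -0.41 to 0.064 (without control replicate 1), H3C14 and H3C15 each from -0.17 to 0.076 (without SOX2 siRNA replicate 3; 0.059 without control replicate 1), and H4C15 from -0.26 (without control replicate 3; -0.117 and -0.0172 without SOX2 siRNA replicates 1 and 2) to 0.276. With a single count overall as the filter, H3C12, otherwise too low to test, was among the 3 called. H2BC5 also lost its call with robust=FALSE (adjusted p = 0.054).

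The fit with a replicate block called 2 genes lower, H2BC12 and H2BC5, and H4C3 had an adjusted p of 0.0522 in edgeR. Same-numbered libraries had correlations of 0.087, -0.038 and -0.031 in their deviations from the group means, so the numbers were not taken to pair them. The chromosome 1 sum was 113.2% of control when it held only genes that passed the filter, since H4C14 then drops out, and 104.7% to 110.2% with a library left out; the chromosome 6 sum was 76.9% to 79.9%. All tested chromosome 6 genes were negative except with no filter (37 of 42) and without control replicate 1 (17 of 18). Depth limits the low genes most: in 36 of 60 genes counts were too few to test.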
